A study of Rattus norvegicus with 18 samples.

Results

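Large-diameter sensory neurons that carry muscle length and touch signals were followed through 8 genes in rat dorsal root ganglia (DRG): Pvalb, Runx3, Etv1, Spp1, Whrn, Nefh, Nefm and Nefl. They were picked by name as genes of parvalbumin-rich and neurofilament-rich neurons. The rule for choosing them reads no measured value, although earlier results of these data were known when they were picked. The count table listed 15075 RefSeq identifiers, of which 9 carried these 8 symbols, because Etv1 was listed under 2 identifiers. The study asked how transcripts in cervical ganglia differ after a spinal pathway injury and after neurotrophin-3 is delivered to forelimb muscle.

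All 18 animals were adult Lister hooded rats, with 6 rats in each group, and the ganglia C6 to C8 of 1 side of each rat were pooled into 1 poly(A) RNA library. Naïve rats had no operation. The bPYX+GFP and bPYX+NT3 rats had both corticospinal tracts cut in the medullary pyramids (bilateral pyramidotomy, bPYX) and received, on the next day, an AAV1 vector in the forelimb flexors of 1 side. That vector carried green fluorescent protein (AAV1 GFP) or human prepro-neurotrophin-3 (AAV1 prepro-neurotrophin-3), each under the CMV promoter, which is not restricted to muscle fibres. Ganglia from the injected side were taken 10 weeks after injury. The injury lies in the brainstem, so it did not itself cut the peripheral axons of the sampled neurons, and no group had injury without a vector. The paper reports neurophysiology and nerve tracing in the operated rats, without saying whether the sequenced rats were traced. Whole ganglia were homogenized, so neurons, glia, fibroblasts and vessel cells all contributed RNA, and fewer cells of a type cannot be told apart from less RNA per cell.

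Rats are named here by the number above their column in the authors' table of all counts. Naïve rats were 41, 42, 43, 44, 45 and 49, bPYX+GFP rats 5, 15, 18, 21, 52 and 57, and bPYX+NT3 rats 2, 11, 17, 23, 39 and 40. The counts that were also deposited rat by rat equalled these columns for 18 of 18 rats, but for 17 rats the title attached to that deposit names another group. The groups of the table were used, and the other grouping was run as an alternative.

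Proprioceptors are the neurons that innervate muscle spindles and tendon organs, and they depend during development on neurotrophin-3 from muscle acting on its receptor TrkC. Runx3 and Etv1 encode transcription factors of that lineage: Runx3 establishes the TrkC-positive fate, and Etv1 is an ETS-family factor needed for the connections that proprioceptors make in the spinal cord. Pvalb encodes parvalbumin, a calcium-buffering protein, Whrn encodes whirlin, a PDZ-domain scaffold, and Spp1 encodes osteopontin, a secreted phosphoprotein that is also made by other cell types. Nefl, Nefm and Nefh encode the light, medium and heavy neurofilament subunits, which copolymerize into the filaments that widen myelinated axons.

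RefSeq promoter sequences of the assembly GRCr8, each from 250 bases before to 50 bases after a transcription start, were at hand for 5 of the 8 genes (Pvalb, Runx3, Etv1, Spp1 and Whrn). Pvalb, Whrn and 1 of the 2 listed starts of Runx3 are shown because the counts of these 3 genes varied together across rats, as described below. Capitals mark exact matches, on either strand, to the GC box GGGCGG, the RUNX core TGTGGT or the ETS core CCGGAA; none of the matches shown overlaps a match to another motif.
Pvalb (chr7:111666240-111666539, minus strand): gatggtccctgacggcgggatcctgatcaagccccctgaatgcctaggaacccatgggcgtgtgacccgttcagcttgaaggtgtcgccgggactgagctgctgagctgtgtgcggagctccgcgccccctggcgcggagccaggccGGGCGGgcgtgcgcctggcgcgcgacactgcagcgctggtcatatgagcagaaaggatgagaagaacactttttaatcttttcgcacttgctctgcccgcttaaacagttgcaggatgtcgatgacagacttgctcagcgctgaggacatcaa
Whrn (chr5:81927332-81927631, minus strand): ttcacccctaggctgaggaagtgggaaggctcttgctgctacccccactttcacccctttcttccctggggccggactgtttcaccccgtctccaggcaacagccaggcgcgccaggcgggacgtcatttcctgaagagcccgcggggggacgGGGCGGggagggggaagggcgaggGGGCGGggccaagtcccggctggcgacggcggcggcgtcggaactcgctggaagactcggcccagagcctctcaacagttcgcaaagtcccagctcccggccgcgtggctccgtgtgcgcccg
Runx3 (chr5:152644020-152644319, plus strand): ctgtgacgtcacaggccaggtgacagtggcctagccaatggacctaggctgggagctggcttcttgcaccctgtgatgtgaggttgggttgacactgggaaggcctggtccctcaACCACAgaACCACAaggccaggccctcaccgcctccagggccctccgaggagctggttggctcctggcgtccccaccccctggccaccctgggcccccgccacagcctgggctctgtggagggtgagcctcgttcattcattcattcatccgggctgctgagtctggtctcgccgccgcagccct
The Pvalb window held 1 GC box and the Whrn window 2. The Runx3 window held no GC box and 2 matches to the RUNX core, both on the opposite strand, 8 bases apart from first base to first base. The window of the other listed Runx3 start held 2 GC boxes and no RUNX core. Of all 33469 promoter windows of this length, 33.1% held a GC box, 17.3% a RUNX core and 15% an ETS core. No ETS core was found in the windows of these 3 genes, nor in those of Etv1 and Spp1. These matches are letters in a window only, and no binding was measured.

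Between 10057787 and 16002410 read-pairs per rat were counted on genes, and 11821 identifiers reached over 10 reads in 6 or more of the 18 rats. Summed over 10 pan-neuronal marker genes, the level was between 49625 and 75329 normalized counts in every rat, so neuronal RNA was present in each library. Normalized counts are the reads of a gene divided by the TMM-scaled library size of the rat and multiplied by the mean of these sizes. Since transcript lengths were not used, the level of one gene is not compared with that of another, and lists are described by the genes with the most reads only to choose examples. Rats 57 (bPYX+GFP) and 11 (bPYX+NT3) stood apart in the share of reads placed in no annotated gene, at 31.7% and 30.8% against 32.5% to 34.6% in the other 16 rats. Their shares of reads on several locations were 19.0% and 19.7% against 20.7% to 22.3%, and their shares of reads that fitted more than 1 gene were 3.31% and 3.41% against 2.79% to 3.04%. Values without these rats are given beside the results they move.

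Of the 8 genes, 6 had enough reads to be tested and 2, Runx3 and Etv1, did not. Pvalb had 985 to 2467 reads per rat, Spp1 7427 to 15559, Whrn 15 to 167, Nefh 20054 to 55204, Nefm 55682 to 80820 and Nefl 27131 to 45764. All 3 groups overlapped for each of the 8 genes. At the study's threshold, an unadjusted p under 0.05, none of the 6 was called in any of the 3 comparisons, which is to be read against the share of all genes that was. For bPYX+GFP against naïve rats 0 of 6 were called, where 3.25% of 11601 tested genes were (0.733% higher and 2.52% lower in bPYX+GFP rats), and the median log2 fold change of the 6 was 0.10 beside 0.01 over all genes. Between bPYX+NT3 rats and the naïve group it was 0 of 6 beside 6.01% of 11693 genes (3.09% higher and 2.92% lower), with medians of 0.06 and 0.00. Of the 6, 0 were also called when the injured groups were compared, beside 1.73% of 11623 genes (1.08% higher and 0.654% lower with neurotrophin-3), with medians of 0.05 and 0.00. Background shares of this size amount to less than 1 in 6 genes. After adjustment over all genes 0 genes passed in each comparison by edgeR's quasi-likelihood test, where 377, 703 and 201 had an unadjusted p under 0.05. By edgeR's likelihood ratio test, the one the study used, 13, 0 and 0 genes passed after adjustment, and by DESeq2 16, 0 and 0. Each group enters 2 comparisons, so these are not independent.

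**Figure D1:**
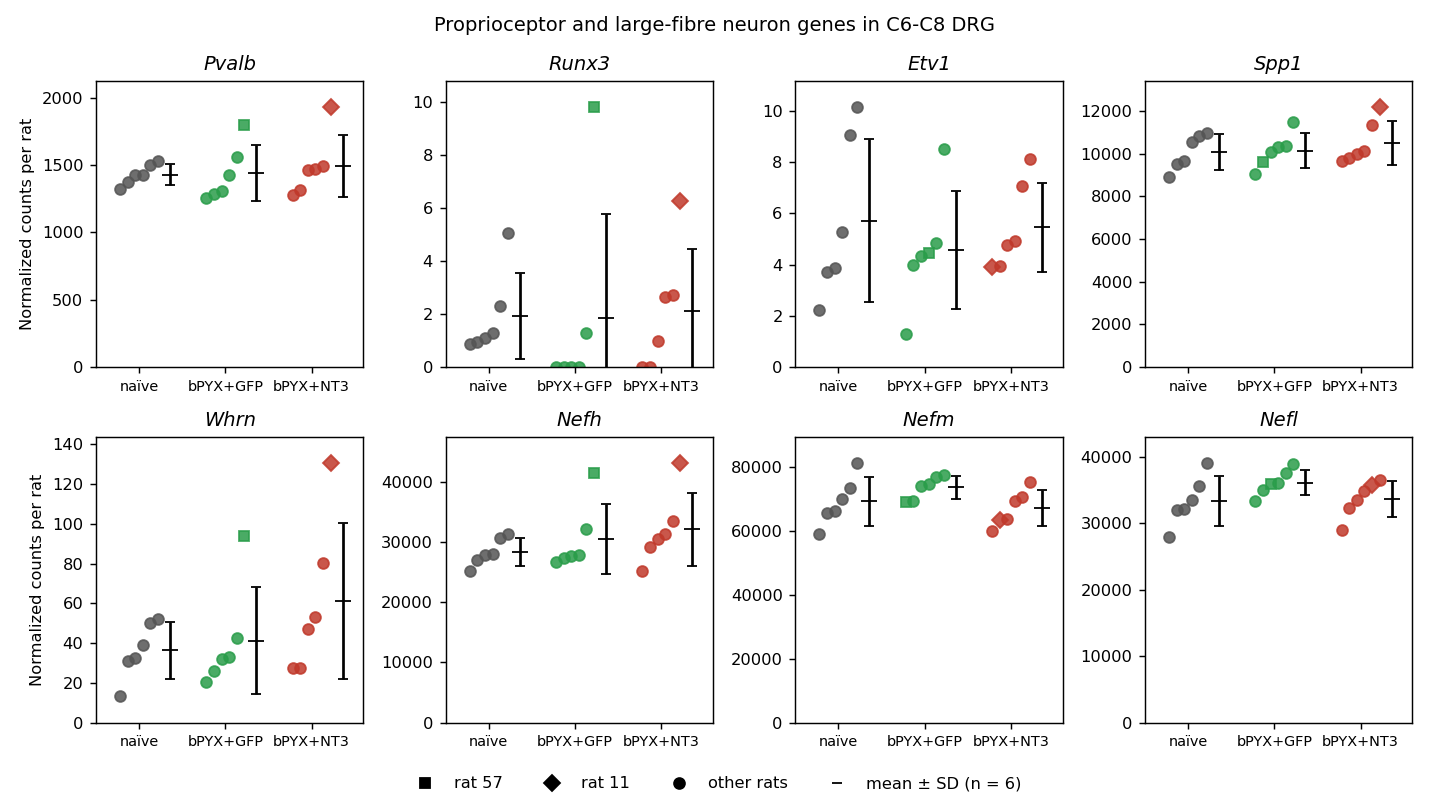
Normalized counts (vertical axis, from 0) of the 8 genes (Etv1 under NM_001163156) in each of the 18 rats, by group (horizontal axis), with the mean ± SD of 6 rats beside each group; the Runx3 bars reach below 0 and are cut at the axis. Rat 57 (square) and rat 11 (diamond) hold the highest Pvalb, Runx3, Whrn and Nefh values of their groups, while the 3 groups overlap for every gene.

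Parvalbumin transcripts did not pass the test in any comparison. Pvalb ran from 1320.0 to 1531 normalized counts in naïve rats (median 1429), from 1259 to 1802 in bPYX+GFP rats (median 1367) and from 1282 to 1933 in bPYX+NT3 rats (median 1468). The 2 highest values were those of rats 57 and 11, and without them the 16 other rats lay between 1259 and 1561. The log2 fold change was 0.01 (95% CI -0.18 to 0.20) between bPYX+GFP and naïve rats, 0.06 (-0.13 to 0.25) between bPYX+NT3 and naïve rats and 0.05 (-0.20 to 0.30) for the bPYX+NT3 rats against the bPYX+GFP rats. The last interval spans Pvalb levels from 0.873 to 1.23 times those of bPYX+GFP rats.

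Osteopontin transcripts did not pass either. Spp1 ran from 8922 to 10985 normalized counts in naïve rats (median 10117), from 9028 to 11508 in bPYX+GFP rats (median 10191) and from 9639 to 12189 in bPYX+NT3 rats (median 10063). The highest value was again in rat 11, but rat 57 was among the lowest rats of its group. The log2 fold changes of Spp1 were 0.01 (95% CI -0.13 to 0.16), 0.06 (-0.10 to 0.22) and 0.05 (-0.11 to 0.21) in the order given for Pvalb.

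Whirlin transcripts were scarce and varied most between rats among the 6 tested genes, with a coefficient of variation of 39.5%, 64.9% and 64.5% within naïve, GFP-treated and NT3-treated rats. Whrn ran from 13.2 to 52.3 normalized counts in naïve rats (median 35.7), from 20.3 to 93.7 in bPYX+GFP rats (median 32.4) and from 27.5 to 131 in bPYX+NT3 rats (median 49.99). The 3 highest values were those of rats 11, 57 and 2, and 4 of 6 bPYX+NT3 rats lay above the median of each other group. The log2 fold change between bPYX+NT3 and naïve rats was 0.76 (SE 0.395, 95% CI -0.09 to 1.60), with an unadjusted p of 0.0762 and 0.607 after Benjamini-Hochberg adjustment in edgeR's quasi-likelihood test. For the bPYX+NT3 rats against the bPYX+GFP rats it was 0.56 (95% CI -0.38 to 1.50), with 0.224 unadjusted and an adjusted p = 0.851 in the same edgeR test, and between bPYX+GFP and naïve rats 0.21 (-0.61 to 1.03). A two-sided exact permutation test of log2 CPM (reads scaled to library size) gave p = 0.203, 0.292 and 0.786 for the same order.
The Whrn values turned on single rats. Without rat 57 the log2 fold change between the injured groups became 1.00 with an unadjusted p of 0.0229 in edgeR's test, and without both rat 57 and rat 11 it was 0.63 with an unadjusted p of 0.0586. In these fits 2291 of 11556 and 1462 of 11477 genes were called, against 201 of 11623 with all rats. Without rat 11 alone the log2 fold change of Whrn was 0.17 with an unadjusted p of 0.674 in the same test. Between bPYX+NT3 and naïve rats the log2 fold change was 0.38 without rat 11, with an unadjusted p of 0.281 in edgeR's test, while that p was 0.0366 without rat 23 and 0.0350 without rat 39, the 2 lowest Whrn rats of the bPYX+NT3 group. Without rat 23, 1387 of 11670 genes were called in this comparison, and without rat 39, 1024 of 11668, against 703 of 11693 with all rats. With the share of reads in no annotated gene as a covariate the log2 fold change of Whrn between bPYX+NT3 and naïve rats was 0.26 (unadjusted p of 0.350 in edgeR's test), and that between the injured groups 0.16 (unadjusted p of 0.478). Between bPYX+GFP and naïve rats the direction turned to -0.24 without rat 57.

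The transcription factor genes were close to the limit of detection. Runx3 had 0 to 11 reads per rat and 39 reads in all 18 rats, and 4 of 6 bPYX+GFP rats, 2 of 6 bPYX+NT3 rats and 0 of 6 naïve rats had no read. A count of 0 allows up to 3 reads, which is 2.91 to 3.99 normalized counts in those 6 rats, so the rats with no read cannot be ranked below most of the others. The 2 highest Runx3 values, 9.82 and 6.27 normalized counts, were in rats 57 and 11. The exact permutation test gave p = 0.517 for bPYX+GFP against naïve rats, 0.929 for bPYX+NT3 against naïve rats and 0.610 for bPYX+NT3 against bPYX+GFP rats.
Etv1 under NM_001163156 had 1 to 10 reads per rat, which is 2.21 to 10.2 normalized counts in naïve rats (median 4.56), 1.27 to 8.51 in bPYX+GFP rats (median 4.40) and 3.92 to 8.12 in bPYX+NT3 rats (median 4.85). Under NM_001108709 it had 1 read in all 18 rats. Reads on exons that both identifiers share may have been set aside as ambiguous, so the Etv1 level is uncertain. The exact permutation tests of the first identifier gave p = 0.507, 0.942 and 0.452 for the same 3 comparisons, and a difference was not detectable at this depth.

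Neurofilament transcripts were abundant, and none of the 3 subunit genes passed the test. The heavy subunit gene Nefh ran from 25133.5 to 31316 normalized counts in naïve rats (median 27916), from 26655 to 41546 in bPYX+GFP rats (median 27748) and from 25286 to 43248 in bPYX+NT3 rats (median 30918). Rats 57 and 11 lay far above the rest, and 5 of 6 bPYX+NT3 rats were above the medians of both other groups. The log2 fold change of Nefh was 0.11 (95% CI -0.12 to 0.35) for bPYX+GFP against naïve rats, 0.18 (-0.05 to 0.41, adjusted p = 0.607 in edgeR's test) for bPYX+NT3 against naïve rats and 0.08 (-0.22 to 0.38) between the injured groups. Without rat 17, the lowest Nefh rat of the bPYX+NT3 group, the second of these became 0.26 with an unadjusted p of 0.0290 in edgeR's test, and without rat 11, the highest, it became 0.0825 with an unadjusted p of 0.332. Without rat 57 the first became -0.00077.

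The medium subunit gene Nefm was on average highest in bPYX+GFP rats. It ran from 58844.5 to 81283 normalized counts in naïve rats (median 68095), from 68982 to 77454 in bPYX+GFP rats (median 74300.5) and from 59899.9 to 75298 in bPYX+NT3 rats (median 66394). All 6 bPYX+GFP rats were above the naïve median, and 1 of 6 bPYX+NT3 rats was above the bPYX+GFP median. For the bPYX+NT3 against the bPYX+GFP group the log2 fold change was -0.13 (SE 0.064, 95% CI -0.27 to 0.00), with p = 0.0550 before and 0.851 after adjustment in edgeR's test and p = 0.0519 in the exact permutation test, whose smallest possible p with 6 rats against 6 is 0.00216. Against naïve rats it was 0.09 (-0.07 to 0.25) in bPYX+GFP rats and -0.05 (-0.23 to 0.13) in bPYX+NT3 rats. Median depth was 11395576.5 read-pairs on genes in bPYX+GFP rats, 13115662.5 in naïve rats and 13697734 in bPYX+NT3 rats. In naïve rats Nefm fell strictly as depth rose, from 81283 at 10357766 read-pairs (rat 44) to 58844.5 at 16002410 (rat 42). That order was not strict in either injured group. Whether depth accounts for the Nefm differences was not tested.
The difference of Nefm between the injured groups lay at the edge of the threshold. Its unadjusted p was under 0.05 in 4 of 25 alternative settings and not in the others. These 4 were DESeq2 (0.0360), robust estimation in edgeR (0.0499), and edgeR without rat 57 (0.0384) or without rat 39 (0.0189). In edgeR's test without both rats 57 and 11 it was 0.0543. The fold change kept its sign in 24 of the 25 settings and turned in 1, the groups of the titles. Calls over all genes between the injured groups were 2291 of 11556 without rat 57 and 292 of 11587 without rat 39, against 201 of 11623 with all rats.

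The light subunit gene Nefl ran from 28019 to 39177 normalized counts in naïve rats (median 32865), from 33409 to 38950.4 in bPYX+GFP rats (median 35980) and from 29069.6 to 36591 in bPYX+NT3 rats (median 34249). As for Nefm, all 6 bPYX+GFP rats were above the naïve median and 1 of 6 bPYX+NT3 rats was above the bPYX+GFP median. Its log2 fold changes were 0.11 (95% CI -0.05 to 0.28), 0.01 (-0.16 to 0.19) and -0.10 (-0.24 to 0.04), none past the threshold. Leaving out rat 44, the naïve rat with the highest Nefl, gave 0.17 with an unadjusted p of 0.0362 in edgeR's test between bPYX+GFP and naïve rats. Rat 44 also had the fewest read-pairs of the naïve group, 10357766. The lower median depth of the bPYX+GFP libraries holds for Nefl too, and its part was not tested.

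**Figure D2:**
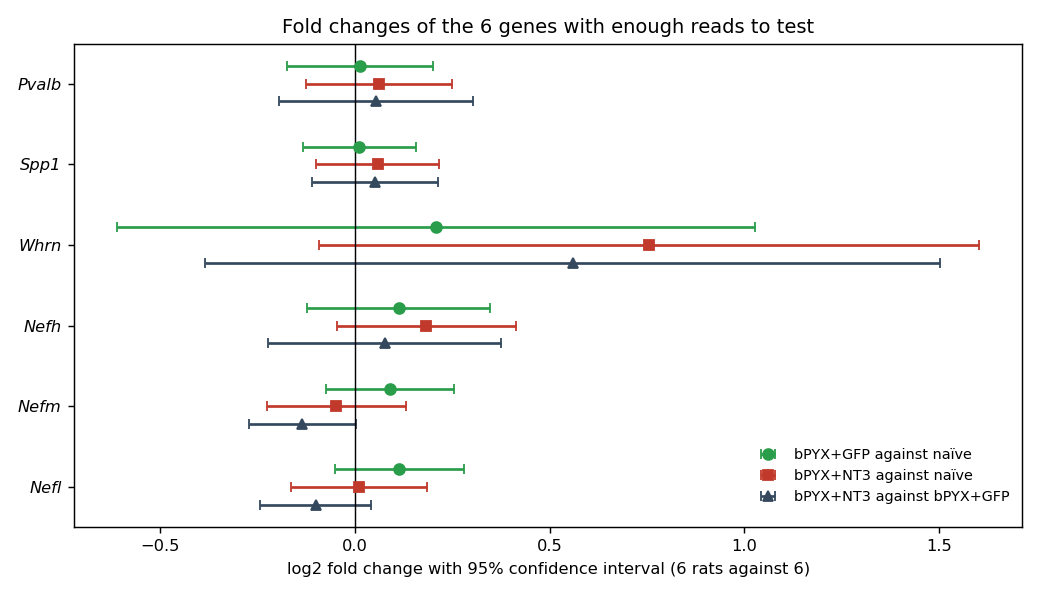
Log2 fold changes (horizontal axis) of the 6 tested genes (vertical axis) in the 3 comparisons, with 95% confidence intervals from edgeR's quasi-likelihood test of 6 rats against 6. Every interval includes 0, and those of Whrn are several times wider than those of the other 5 genes.

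Although the groups did not separate these genes, the rats did. In each rat, the deviation of log2 CPM from the mean of its own group was taken, so that what follows does not depend on group differences. Over the 28 pairs of genes, p-values came from 100000 shuffles within groups with Benjamini-Hochberg adjustment.
Pvalb and Nefh varied together across rats. Their deviations had a Pearson r of 0.96 and a Spearman rho of 0.94 over 18 rats, each with p = 1e-05, the smallest these shuffles can give, and an adjusted p of 0.00028. Taken group by group (6 rats each), r was 0.99 for naïve rats, 0.95 with GFP and 0.97 with NT3, and it was 0.90 without rats 57 and 11. Ranked by r with Pvalb among 11820 genes, Nefh came 3rd, Whrn 1563rd, Nefl 4187th, Spp1 5502nd and Nefm 5846th. The 5 genes most like Pvalb were Mdh1 (r = 0.96), Lgi3 (0.96), Nefh (0.96), Cstpp1 (0.96) and Got1 (0.96), all over 18 rats. Mdh1 and Got1 encode cytosolic enzymes of the malate-aspartate shuttle, and Lgi3 encodes a secreted leucine-rich repeat protein of neurons.

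**Figure D3:**
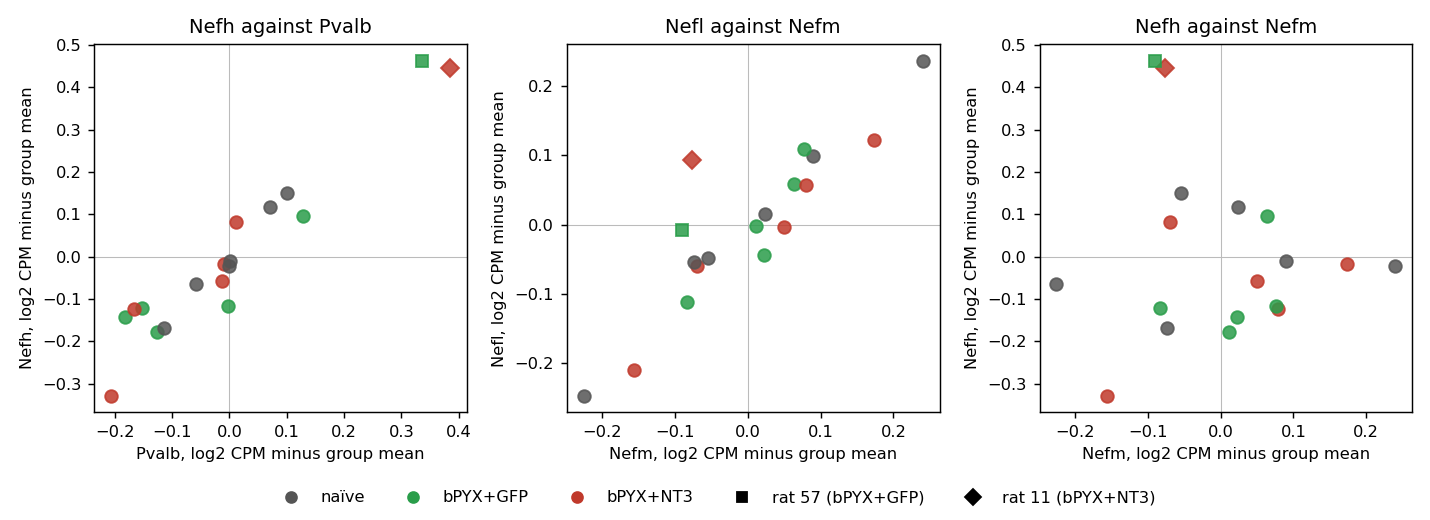
Deviation of log2 CPM from the group mean for 3 pairs of genes, with 1 point for each of 18 rats, coloured by group. Nefh followed Pvalb (r = 0.96) and Nefl followed Nefm (r = 0.89), while Nefh did not follow Nefm over 18 rats (r = -0.07, and 0.25 without rats 57 and 11).

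Nefm and Nefl formed another pair. Their r was 0.89 and rho 0.84 over 18 rats (p = 7.0e-05 and 0.00022 by permutation, adjusted p = 0.00098 and 0.00308), r was 0.78 without rats 42 and 44, the farthest from the median of Nefm, and within groups it was 0.996 for naïve rats, 0.76 with GFP and 0.75 with NT3. In naïve rats both genes fell strictly as library depth rose, Nefl from 39177 normalized counts in rat 44 to 28019 in rat 42. Whether depth accounts for this pair was not tested. Nefh, the third subunit, had an r of only -0.07 with Nefm (p = 0.771) and 0.29 with Nefl (p = 0.210, both by permutation). Without rats 57 and 11 these r were 0.25 and 0.33. The ratio of reads shows this directly. The log2 ratio of Nefl to Nefm reads stayed between -1.09 and -0.82 in all 18 rats, with an SD of 0.061, whereas that of Nefh to Nefm ranged from -1.55 to -0.55 with an SD of 0.262. The highest Nefh to Nefm ratios were -0.55 in rat 11 and -0.73 in rat 57, against at most -0.92 in the others.
The mean of the 3 neurofilament genes was most like Atp5f1b (r = 0.91), Slc25a4 (0.90), Dync1i1 (0.88), the identifier NM_001108407 (0.87) and Kcns3 (0.87), over 18 rats and 11818 genes. Atp5f1b and Slc25a4 encode the beta subunit of ATP synthase and a mitochondrial ADP/ATP carrier, and Dync1i1 encodes an intermediate chain of the dynein motor.

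Whrn and Runx3 varied with Pvalb and Nefh, but mainly through 2 rats. Whrn had an r of 0.75 with Nefh and 0.72 with Pvalb (adjusted p = 0.0178 each, by permutation), which fell to 0.46 and 0.41 without rats 57 and 11. The r of 0.72 placed Whrn only 1563rd of 11820 genes ranked with Pvalb, so an r of this size is not particular to these members. For Runx3 the r was 0.75 with Pvalb, 0.75 with Nefh and 0.70 with Whrn (adjusted p = 0.0178, 0.0267 and 0.0229 by permutation), and without the same rats 0.40, 0.34 and 0.40, with only 0 to 11 reads behind each Runx3 value. By Spearman's rho the adjusted p was 0.121 for Runx3 with Pvalb and with Nefh, 0.0472 for Runx3 with Whrn and 0.0472 for Whrn with Pvalb and with Nefh. Spp1 and Etv1 had no pair with an adjusted p under 0.05, and 7 of the 28 pairs had one by r and 5 by rho.

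**Figure D4:**
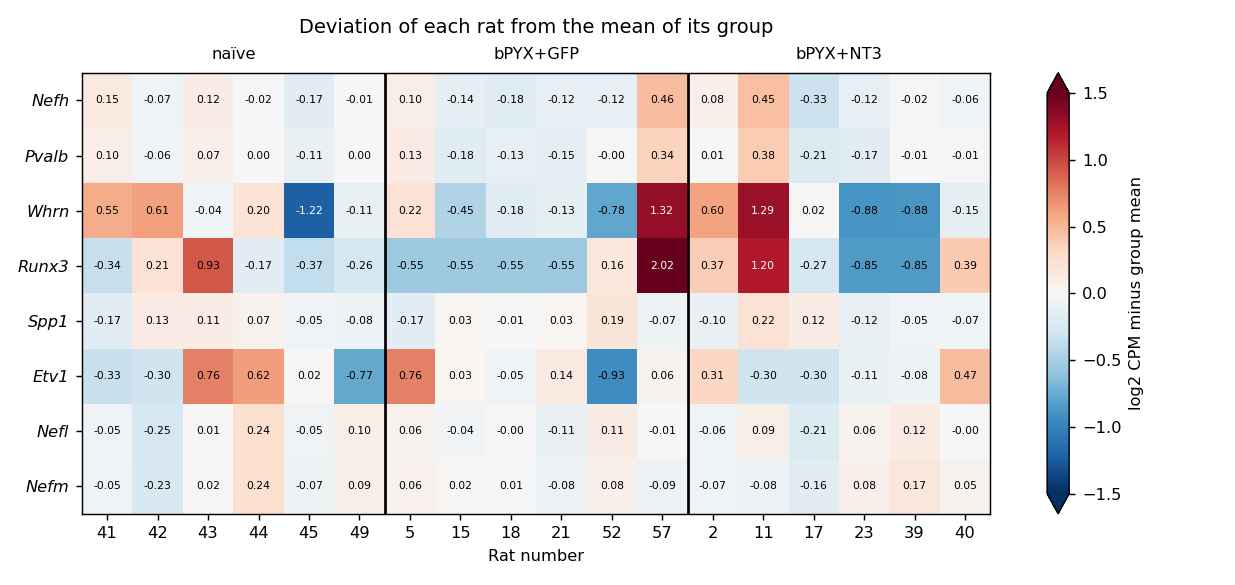
Deviation of log2 CPM from the group mean for each gene (rows) and rat (columns, by group), with red for above and blue for below the mean and the colour saturating at 1.5. Rats 57 and 11 were above their group mean in Nefh, Pvalb, Whrn and Runx3 and below it in Nefm.

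Rat 57 was above its group mean by 0.34 in Pvalb, 0.46 in Nefh, 1.32 in Whrn and 2.02 in Runx3, and rat 11 by 0.38, 0.45, 1.29 and 1.20, all as differences of log2 CPM. In Nefm both were slightly below their group mean, at -0.09 and -0.08, and in Nefl they were at -0.01 and 0.09. These genes moved with the share of reads in no annotated gene, the measure in which the same rats stood apart. After group means were removed, r with that share over 18 rats was -0.82 for Whrn (rho -0.76), -0.78 for Nefh (rho -0.53), -0.77 for Pvalb (rho -0.44) and -0.75 for Runx3 (rho -0.56), with adjusted p over 8 relations of 0.0035, 0.0086, 0.0086 and 0.0086 for r and 0.0053, 0.0633, 0.124 and 0.0489 for rho by permutation. Without rats 57 and 11 these were -0.64, -0.38, -0.35 and -0.39. For Nefm r had the other sign, 0.50 (adjusted p = 0.0621 by permutation), and 0.51 without those rats. Its rho over 18 rats was 0.61 (adjusted p = 0.0489 by permutation).
Other cell types shifted in the same rats. Of 18 rats, rats 11 and 57 held the highest and second highest summed pan-neuronal level, 75329 and 69138 normalized counts, and the lowest and second lowest summed satellite glia level, 23116 and 23386 against up to 32522. The summed level of endoneurial fibroblast genes was lowest in rat 11, at 20910.3, and 15th of 18 in rat 57, at 26261. The summed skeletal muscle level was highest in rat 57, at 238.4 against at most 108.1 in the other rats, and 5th in rat 11. Summed levels of the lists of neuronal genes did not rank alike in these rats. The summed level of large-fibre excitability genes ranked 1st in rat 57, at 53077, and 2nd in rat 11, at 48368. That of the list of TrkC-lineage and large-diameter identity genes ranked 14th in rat 57, at 20215, and 17th in rat 11, at 19455. Ret and Ntrk2 made up much of this sum. In naïve rats its median was 21160, while 1 identifier of Ret averaged 6647 and 1 of Ntrk2 4729. Ntrk3, which encodes TrkC, was not in the sum, so the rank is not a measure of TrkC neurons. Nociceptor genes ranked 1st in rat 57, at 21761, and 10th in rat 11, at 19447. Whether these shifts account for the Pvalb, Nefh, Whrn and Runx3 values was not tested.

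**Figure D5:**
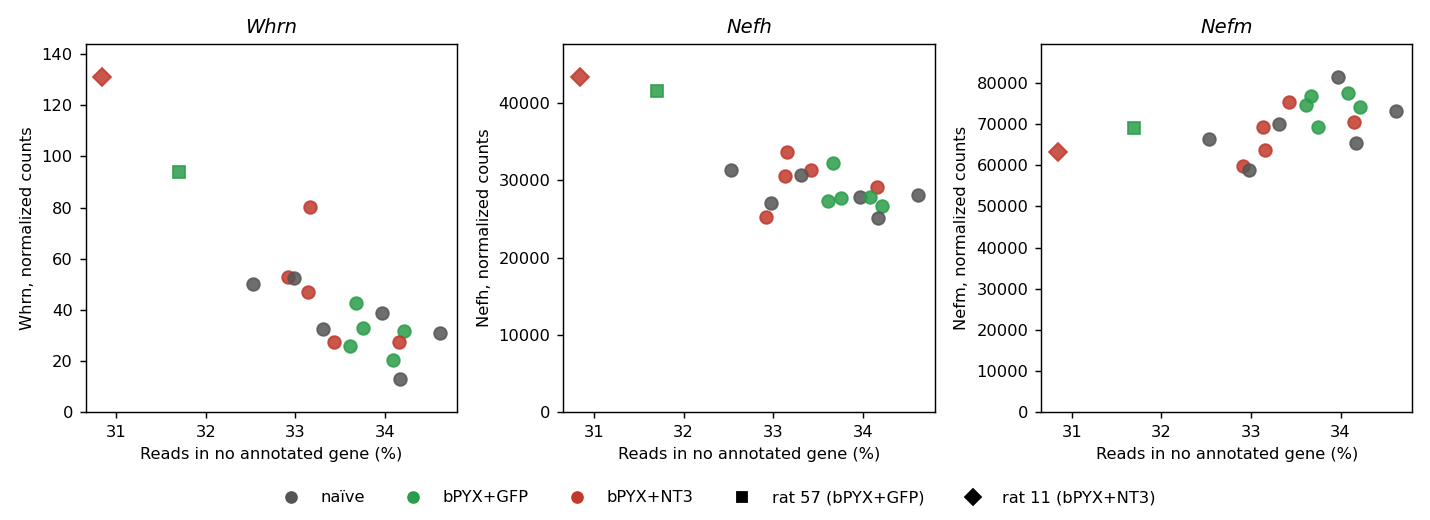
Normalized counts (vertical axis, from 0) of Whrn, Nefh and Nefm against the share of reads in no annotated gene (horizontal axis, in percent; it starts above 0), with 1 point for each of 18 rats. The lowest shares, 30.8% and 31.7%, were in rats 11 and 57, which had the highest Whrn and Nefh values but not the highest Nefm values.

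Calls among genes with related roles are to be read against the 3.25%, 6.01% and 1.73% of all genes called in the 3 comparisons. Of the 21 genes of a list of TrkC-lineage and large-diameter neuron identity, 17 were in the table, as 19 tested identifiers. Of these, 0 passed in bPYX+GFP against naïve rats, 1 (5.26%) in bPYX+NT3 against naïve rats and 0 between the injured groups. That gene was Maf, a transcription factor of touch neurons, which fell by 0.24 on the log2 scale (SE 0.092, adjusted p = 0.607 in edgeR's test). The genes of the list with the most reads were Ret and Ntrk2, the receptor tyrosine kinases for GDNF family ligands and BDNF. Their log2 fold changes lay between -0.06 and 0.04 for both identifiers of each gene in all 3 comparisons. Ntrk3, which encodes TrkC, was not analysed here.
Of 20 genes of large-fibre excitability and transmission, 18 were in the table and 17 identifiers were tested, with 0 called between bPYX+GFP and naïve rats. Of the 17, 2 (11.8%) were called higher in bPYX+NT3 than in naïve rats. Between the injured groups 1 (5.88%) was called, lower with neurotrophin-3. In bPYX+NT3 against naïve rats Asic2, an acid-sensing channel subunit gene, rose by 0.26 ± 0.117 (SE) on the log2 scale, with an adjusted p of 0.607 in edgeR's test; without rat 11 it was 0.19, with an unadjusted p of 0.102. Kcna2, a potassium channel subunit of the juxtaparanode, was lower by a log2 fold change of -0.24 in bPYX+NT3 than in bPYX+GFP rats (SE 0.110, adjusted p = 0.851 in the same test), and without rats 57 and 11 at -0.19, with an unadjusted p of 0.0733. The sodium channel genes Scn4b and Scn1a, those of the list with the most reads, had log2 fold changes of 0.05 and 0.10 in bPYX+GFP against naïve rats. The median log2 fold change of this list was 0.12, 0.14 and 0.05 in the 3 comparisons.
Of 25 partners of neurofilaments in the axonal cytoskeleton, 19 were in the table and 20 identifiers were tested. Only Map1b, a microtubule-associated protein gene, passed in any comparison, which is 5% of the 20 between the injured groups. Its log2 fold change was -0.15 in bPYX+NT3 against bPYX+GFP rats (SE 0.064, adjusted p = 0.851 in edgeR's test). Its unadjusted p in that test was 0.0718 without rat 11 and 0.0223 without both rats 57 and 11, a fit in which 1462 of 11477 genes were called. Map1b was on average highest in bPYX+GFP rats, as Nefm and Nefl were, with a median of 165595 normalized counts for the naïve group, 184567 with GFP and 167279 with neurotrophin-3. Stmn2, a tubulin-binding protein gene of growing axons, had medians of 27870.2, 28217 and 28293.5.

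Markers of other cells of the ganglion were followed beside the neuronal genes. Of 11 tested nociceptor and C-fibre genes, 0 passed in bPYX+GFP against naïve rats and 1 rose in bPYX+NT3 against naïve rats (Calcb), and of 8 tested pan-neuronal genes 0 passed in each comparison. Of 5 tested endoneurial fibroblast genes, 3 fell in each injured group against naïve rats (Col1a1, Col3a1 and Lum with GFP, Col3a1, Col1a1 and Dcn with neurotrophin-3), beside 2.52% and 2.92% of all genes. Without rat 57 Lum and without rat 11 Dcn no longer passed, with an unadjusted p of 0.0614 and 0.0852. Of 8 myelinating Schwann cell genes 2 fell in bPYX+GFP (Pmp22 and Egr2) and 1 in bPYX+NT3 rats (Pmp22) against naïve rats. These are 25% and 12.5% of the list, beside the same 2.52% and 2.92% of all genes. Adipocyte genes, of which Fabp4 and Adipoq were tested, were both lower in bPYX+NT3 than in bPYX+GFP rats, and Adipoq also fell in bPYX+NT3 against naïve rats. Among satellite glia genes Kcnj10 was higher in bPYX+NT3 than in bPYX+GFP rats, of 6 endothelial genes 1 rose in bPYX+NT3 against naïve rats (Flt1), and of skeletal muscle genes Atp2a1 was called higher in both injured groups than in naïve rats. In bPYX+GFP rats that call rested on rat 57, at 78.6 normalized counts against 6.78 to 21.9 in the other 5 rats, and without it the log2 fold change was 0.28 in place of 1.17, with an unadjusted p of 0.382. Macrophage genes (10 tested) and T and natural killer cell genes (7 tested) had 0 called in each comparison. Each of these calls is at an unadjusted p under 0.05 in edgeR's test, and the part of these cell types in the neurofilament and Pvalb values was not tested. In lists this short 1 call is already a larger share than that of all genes. For the 11 nociceptor genes it is 9.09%, beside 3.09% of all genes that rose.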

How the data were processed

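Poly(A) RNA of C6-C8 DRG was sequenced by the study as paired-end reads on a stranded TruSeq library. TopHat2 was used by the authors for alignment to Rnor_6.0 and Picard for taking out duplicates. They deposited HTSeq counts per RefSeq identifier, as whole numbers without normalization. Removing duplicates can lower the counts of very abundant transcripts such as the neurofilaments, and what it changed here was not tested. Reads in no annotated gene (30.8% to 34.6% of the counted total), ambiguous reads (2.79% to 3.41%) and reads on several locations (19.0% to 22.3%) entered neither library sizes nor tests. RefSeq symbols were matched to 14193 of 15075 identifiers through a RefSeq table of GRCr8, from which the promoters also come; 0 columns of the count table were left unused.

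Each pair of groups was fitted in R 4.3.3 with edgeR 4.0.16 (TMM, estimateDisp, glmQLFit, glmQLFTest) over genes that reached over 10 reads in 6 or more of the 12 rats, with Benjamini-Hochberg adjustment over all of them. A call is an unadjusted p under 0.05, as in the study, which used edgeR's likelihood ratio test. Two-sided exact permutation tests served for single values (924 splits), on log2 CPM with a prior count of 2. Correlations across rats used 100000 shuffles. Other steps ran in Python 3.11.15 (scipy 1.17.1, numpy 2.4.6, pandas 2.3.3, matplotlib 3.10.9). The fits and tests were tested on simulated data with known changes.

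The members and lists were chosen with earlier results of these data known. The genes named are the 8 members, up to 4 genes of each pathway list with an unadjusted p under 0.05 per comparison or else the 2 with the most reads, those of each cell type list that were called, and the 5 genes most like Pvalb and most like the mean of the neurofilament genes. Of the called cell type genes, Calcb, Col1a1, Lum, Egr2, Kcnj10 and Flt1 fall outside the rule, which took the 2 with the most reads of a list, and were named after their values were seen. Some list genes that met the rule are not reported here. Alternatives were the likelihood ratio test, DESeq2 1.42.0, edgeR with DESeq2 size factors or with plain library sizes, no filter or filterByExpr, 1 fit over the 3 groups, robust estimation, the no-feature share as a covariate, scaling to the pan-neuronal counts, the groups of the titles, a prior count of 0.5 and leaving out each rat. The replicate number as a block, leaving out rats 57 and 11 together, reading the called list genes without either rat and the correlations with the no-feature share were added after seeing the data.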

Additional observations from a re-analysis of the deposited data

Results flagged for a closer look

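In 24 groups of 6 rats (8 genes in 3 groups), the highest or lowest rat was set against the others by Dixon's test at the 95% level, which marked 5. Chance alone marks about 1 group in 20 where values are normally distributed and the groups independent. Neither was met throughout, since Runx3 had 0 to 11 reads per rat and several of these genes varied together. How many marks chance would give here is therefore not known. Rat 57 of the bPYX+GFP group was marked 3 times. Its Nefh was 41546 normalized counts where the next highest rat of the group had 32225, its Whrn was 93.7 where the next had 42.5, and its Runx3 was 9.82 where the next had 1.27. Rat 11 of the bPYX+NT3 group was marked in Pvalb, at 1933 normalized counts against 1492 in the next rat. The remaining one was rat 43 of the naïve group in Runx3, at 5.08 normalized counts, which is 5 reads, against 2.31 in the next rat. Nefm, Nefl, Spp1 and Etv1 had no marked rat in any group. The values of rats 57 and 11 moved together with their low shares of reads in no annotated gene, 31.7% and 30.8%, and what these rats had in common was not tested.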

How the results depend on the processing

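With the likelihood ratio test, DESeq2 size factors, library size alone, either other filter or 1 fit over the 3 groups, all 18 fold changes (6 genes in 3 comparisons) kept their direction and none was called; without a filter Runx3 and Etv1 were tested too, and none of their p was under 0.05. The number of genes called was 1 in place of 0 with DESeq2 and with robust estimation between bPYX+NT3 and bPYX+GFP rats (Nefm) and 1 with the replicate block between bPYX+NT3 and naïve rats (Whrn, 0.69, unadjusted p of 0.00805 in edgeR). Same-numbered rats did not deviate together in every pair (r over 0.1 in 2, 5 and 3 of 6 pairs, lowest -0.37, -0.30 and -0.40; 1, 3 and 1 of 6 rats matched their own number best), so the block stands for a shared number only; with it 316, 2962 and 130 genes in all had an unadjusted p under 0.05, beside 377, 703 and 201. Leaving out 1 rat gave 0 to 1 called genes against naïve rats for bPYX+GFP and for bPYX+NT3 and 0 to 2 between the injured groups. Over all genes it gave 272 to 595, 365 to 1387 and 95 to 2291 calls. The 1387 came without rat 23 (of 11670 tested) and the 2291 without rat 57 (of 11556 tested). With rats 57 and 11 both out, 1462 of 11477 genes were called between the injured groups. Adjusted for the no-feature share, 848 of 11601 were called between bPYX+GFP and naïve rats.

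Over leave-one-out fits, the log2 fold change of bPYX+GFP against naïve rats ran from -0.0665 to 0.0492 for Pvalb, -0.0293 to 0.0417 for Spp1, -0.24 to 0.34 for Whrn and -0.00077 to 0.15 for Nefh; of bPYX+NT3 against naïve rats from -0.0242 to 0.12 for Pvalb, -0.0876 to 0.00827 for Nefm and -0.0321 to 0.0659 for Nefl; and between the injured groups from -0.0402 to 0.13 for Pvalb and -0.0323 to 0.18 for Nefh. Without rats 57 and 11 Spp1 was -0.0105 between the injured groups. Scaling to pan-neuronal counts moved the median of all genes to -0.11 between bPYX+NT3 and naïve rats. Pvalb and Spp1 then became -0.0703 and -0.0558 in bPYX+GFP rats and -0.0645 and -0.0605 in bPYX+NT3 rats against naïve rats, Nefl -0.11 in the latter, and Spp1 -0.00465 between the injured groups. Adjusted for the no-feature share, Pvalb became -0.00547, -0.0285 and -0.0493 in the 3 comparisons, Nefm 0.00257 in bPYX+NT3 against naïve rats and Nefh -0.0408 between the injured groups, while against naïve rats Nefh in bPYX+NT3 rats moved from 0.18 to 0.0785 and Whrn from 0.76 to 0.26. By the groups of the titles, bPYX+GFP against naïve rats gave -0.0741, -0.0701, -0.65, -0.10, -0.0158 and -0.0579 for Pvalb, Spp1, Whrn, Nefh, Nefm and Nefl; bPYX+NT3 against naïve rats gave -0.0249, -0.68, -0.0586 and 0.0810 for Spp1, Whrn, Nefh and Nefm; and the injured groups gave -0.0339, 0.10 and 0.12 for Whrn, Nefm and Nefl. Apart from effects of fewer rats, the cause of these turns was not tested. Runx3 and Etv1 are limited by depth, Whrn by the spread between rats.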
